A study of Mus musculus with 2 samples.

Results

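Described here are 43 antioxidant and redox defence genes of the mouse in total RNA of the adrenal gland. The genes were chosen by gene symbol for their known roles, with earlier results of these data known. They are 43 of the 55536 annotated genes of the gene table, and all 43 were matched by symbol to GENCODE M21 on the mm10 assembly. The study sequenced adrenal glands of female B6CASTF1/J mice (F1 hybrids from The Jackson Laboratory, aged 2 months) as 2 total RNA-seq libraries, labelled biological replicates 1 and 2. Both carry the same genotype, sex, age and tissue, no agent was given in the labels, and there is no second group, so the values describe a level and the spread between 2 libraries, with no test between conditions. Each library began from 300 ng of RNA with ERCC spike-ins, after removal of ribosomal RNA and with a directional kit. The library descriptions name the same animal for both libraries and the biosample descriptions name different animals. The spread may therefore hold no variation between animals. The labels do not say which gland was taken or whether glands were pooled, and in such bulk tissue fewer cells of a type and less RNA per cell cannot be told apart.

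Cells make superoxide and hydrogen peroxide as by-products of respiration and of cytochrome P450 enzymes. Superoxide dismutases turn superoxide into hydrogen peroxide, which catalase, the glutathione peroxidases and the peroxiredoxins then reduce, drawing on glutathione or thioredoxin and in the end on NADPH. In the adrenal cortex the steroid-making P450 enzymes of mitochondria use the same NADPH and leak electrons to oxygen, and in mouse adrenal the oxidation of the mitochondrial peroxiredoxin Prdx3 and its repair by sulfiredoxin are known to follow corticosterone production. The transcription factor NRF2, held back by KEAP1, drives many of these genes through the antioxidant response element.

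On annotated genes there were 34203664 counts in replicate 1 and 35959484 counts in replicate 2. The limit that a count of 0 allows, 3 counts, was 0.0877 CPM (counts scaled to the library total) in replicate 1 and 0.0834 CPM in replicate 2. The replicates differed by far more than sampling noise, with a chi-square of 77.2 per degree of freedom over 17319 genes, and were kept as separate samples. Markers of the adrenal cortex were abundant in both, summing to 15940 TPM in replicate 1 and 18262 TPM in replicate 2 over 7 genes (TPM is a level per transcript length that sums to a fixed total over a library). Markers of several neighbouring tissues differed, and those of white fat and macrophages were closer. Kidney tubule markers (8 genes) summed to 20.3 TPM in replicate 1 and 0.460 TPM in replicate 2, where 6 of them had 0 counts. Liver markers (6 genes) summed to 184 TPM in replicate 1 and 117 TPM in replicate 2. Brown fat markers (6 genes) summed to 653 TPM in replicate 1 and 1270 TPM in replicate 2, and erythroid markers (6 genes) to 1133 and 1994 TPM in the same order. White fat markers (5 genes) summed to 1747 TPM in replicate 1 and 1969 TPM in replicate 2, and macrophage markers (6 genes) to 133 and 129 TPM. Medulla markers (5 genes) summed to 1814 TPM in replicate 1 and 1481 TPM in replicate 2. The part of these tissues in the values of the redox genes was not tested.

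The redox genes were nearly all expressed. In both libraries 42 of 43 reached 1 TPM, 36 reached 10 TPM and 17 reached 100 TPM; the exception at 1 TPM was Gpx2. Among the 21938 nuclear protein-coding genes, 11778 reached 1 TPM in both libraries, and 17 of the 43 redox genes stood among the 500 with the highest mean TPM. The median of the 43 mean levels was 44.6 TPM, beside 10.5 TPM over the nuclear protein-coding genes at 1 TPM or more. Together the 43 genes summed to 5461 TPM in replicate 1 and 6258 TPM in replicate 2, which was 1.72% and 1.76% of all nuclear protein-coding TPM (1.74 ± 0.0255%, SD, n = 2). By role, the peroxiredoxins with sulfiredoxin held 22.7% of that sum, the microsomal glutathione transferases 17.2%, the glutathione peroxidases 16.1%, the NADPH sources 15.4%, and the superoxide dismutases with catalase 15.2%.

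**Figure D1:**
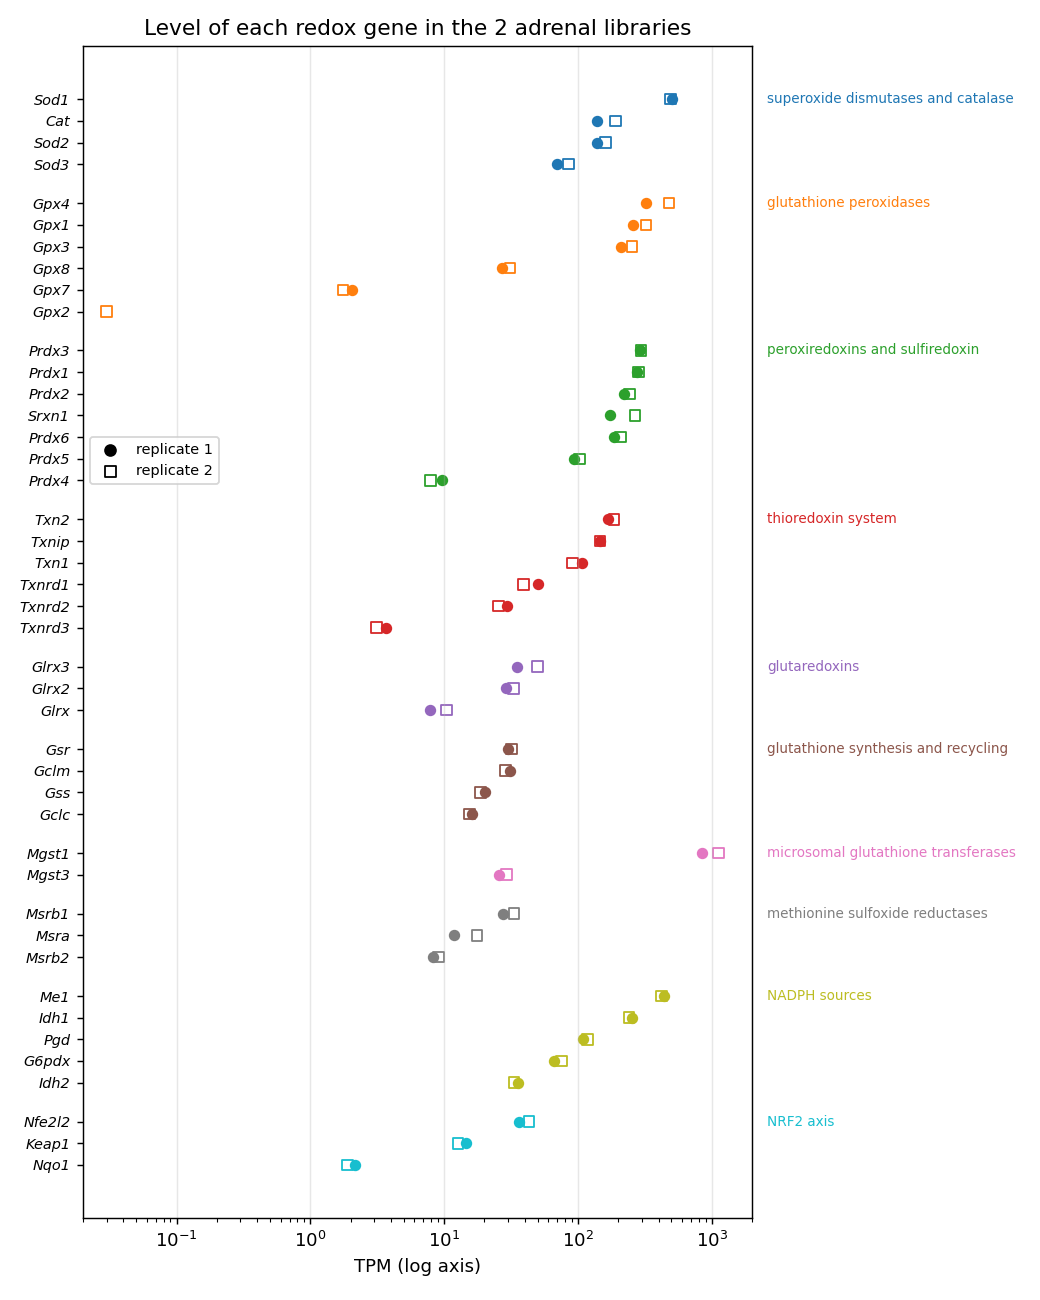
Level of each redox gene in TPM (log axis), with a marker for each library, replicate 1 and replicate 2, and the genes grouped and coloured by role. Mgst1 stands highest at 845 and 1121 TPM, Gpx2 lowest (its replicate 1 value of 0 is not drawn), and the libraries sit close together for nearly every gene beside the spread between genes.

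The superoxide dismutases lie in different compartments. Sod1, the copper-zinc enzyme of the cytosol (ENSMUSG00000022982.10, chromosome 16, 90220754 to 90226329, plus strand, mm10), had 507 TPM in replicate 1 and 492 TPM in replicate 2 and ranked 48 by mean TPM among nuclear protein-coding genes. Sod2, the manganese enzyme of the mitochondrial matrix, had 138 and 161 TPM in replicates 1 and 2. Sod3, which is secreted and binds the extracellular matrix, had 69.2 and 84.8 TPM. Sod1 was therefore 3.67 times Sod2 in replicate 1 and 3.06 times in replicate 2, a ratio larger than its spread (log2 1.74 ± 0.18, SD, n = 2). That ratio is of all transcripts of each gene. Protein-coding transcripts held 504 and 489 TPM for Sod1 in replicates 1 and 2, but 15.54 and 14.55 TPM for Sod2. Catalase, the peroxisomal enzyme that splits hydrogen peroxide without a cofactor donor, was encoded by Cat at 138 TPM in replicate 1 and 190 TPM in replicate 2. Cat and Sod3 were both lower in replicate 1, and Sod1 was slightly higher there.

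The glutathione peroxidases reduce peroxides with glutathione, and most of them carry selenocysteine at the active site, read from an in-frame TGA that elsewhere stops translation. The stretches below are shown because that codon divides the family and the thioredoxin reductases share it. Each is copied 5′ to 3′ from a GENCODE M21 transcript (mm10), with the selenocysteine codon, or the cysteine codon at the same place, in capitals.
Gpx1: aatgtcgcgtctctcTGAggcaccacg
Gpx2: aatgtggcgtcactcTGAggaacaact
Gpx3: aacgtagccagctacTGAggtctgaca
Gpx4: aacgtggcctcgcaaTGAggcaaaact
Gpx7: aacgtagctagcgaaTGTggcttcaca
Gpx8: aacgtggctagtgacTGCcgcttcaca
Txnrd1: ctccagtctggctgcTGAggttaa
Txnrd2: actgtgactggttgcTGAggctaa
Txnrd3: actcagaaaggctgcTGAggctag
Msrb1: ggacaatcaagattcTGAatatttagc

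The capital codons lie in the coding exons at chr9:108339451-108339453 (plus strand) for Gpx1, chr12:76795256-76795258 (minus) for Gpx2, chr11:54907256-54907258 (plus) for Gpx3, chr10:80054737-80054739 (plus) for Gpx4, chr4:108403430-108403432 (minus) for Gpx7 and chr13:113045661-113045663 (minus) for Gpx8. For the thioredoxin reductases they lie at chr10:82896037-82896039 (plus) for Txnrd1, chr16:18477772-18477774 (plus) for Txnrd2 and chr6:89674789-89674791 (plus) for Txnrd3, and for Msrb1 at chr17:24740158-24740160 (plus). In each thioredoxin reductase a single glycine codon separates the TGA from the stop codon that ends its stretch. In all, 8 of the 43 genes carried an annotated selenocysteine codon.

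Among the selenocysteine peroxidases, Gpx4, Gpx1 and Gpx3 were abundant and Gpx2 was near 0. Gpx4, which reduces lipid peroxides within membranes and guards against ferroptosis (ENSMUSG00000075706.10, chromosome 10, 80047166 to 80056439, plus strand), had 322 TPM in replicate 1 and 478 TPM in replicate 2. Gpx1, the general enzyme of cytosol and mitochondria, had 256 and 322 TPM in replicates 1 and 2. Gpx3, the secreted plasma form, had 208 and 253 TPM. All of these had a lower TPM in replicate 1. Gpx2, the form of the gut epithelium, had 0 counts in replicate 1 and 1 count in replicate 2, both under the 3-count limit, so no ratio is given. Of the cysteine forms, Gpx8 of the endoplasmic reticulum membrane had 27.2 TPM in replicate 1 and 31.1 TPM in replicate 2. Gpx7, its relative in the lumen of the endoplasmic reticulum, had 2.04 and 1.76 TPM, from 85 and 69 counts.

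The peroxiredoxins reduce hydrogen peroxide through a reactive cysteine, and the mitochondrial member led by RSEM TPM, the scale used unless kallisto, a second deposited quantification from the reads and a transcript index, is named. Prdx3, of the mitochondrial matrix (ENSMUSG00000024997.7, chromosome 19, 60864051 to 60874556, minus strand), had 292 TPM in replicate 1 and 297 TPM in replicate 2. Prdx1, of the cytosol and nucleus, had 275 and 283 TPM in replicates 1 and 2. Prdx2, of the cytosol and best known from red cells, had 219 and 243 TPM. The order of these 3 turned with the quantification, since by kallisto Prdx2 led with 638 TPM in replicate 1 and 505 TPM in replicate 2, above Prdx3 at 456 and 366 TPM. Prdx6, which reduces phospholipid hydroperoxides with a single reactive cysteine, had 186 TPM in replicate 1 and 207 TPM in replicate 2. Prdx5, found in mitochondria, peroxisomes and cytosol, had 94.2 and 103 TPM. Prdx4, the secretory-pathway member, had 9.72 TPM in replicate 1 and 7.94 TPM in replicate 2, so Prdx3 was 30.0 times Prdx4 in replicate 1 and 37.4 times in replicate 2. Srxn1, sulfiredoxin, which repairs over-oxidised peroxiredoxins (ENSMUSG00000032802.8, chromosome 2, 152105516 to 152111376, plus strand), had 173 TPM in replicate 1 and 268 TPM in replicate 2 and ranked 210.

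The thioredoxin system carries electrons from NADPH to the peroxiredoxins. Mitochondrial thioredoxin, Txn2, had 167 TPM in replicate 1 and 187 TPM in replicate 2, above cytosolic thioredoxin, Txn1, at 107 and 91.4 TPM. The Txn2 to Txn1 ratio was 1.55 in replicate 1 and 2.04 in replicate 2. For the reductases the order was the other way round. Txnrd1, the cytosolic thioredoxin reductase, had 50.1 TPM in replicate 1 and 39.1 TPM in replicate 2, above mitochondrial Txnrd2 at 29.3 and 25.4 TPM. The Txnrd1 to Txnrd2 ratio was 1.71 in replicate 1 and 1.54 in replicate 2. Txnrd3, a thioredoxin and glutathione reductase best known from testis, had 3.65 and 3.13 TPM. Txnip, which binds and inhibits thioredoxin, had 145 TPM in replicate 1 and 146 TPM in replicate 2. Of the glutaredoxins, which use glutathione to reduce mixed disulfides, Glrx3 (an iron-sulfur cluster protein) had 34.8 and 49.9 TPM in replicates 1 and 2, mitochondrial Glrx2 had 29.0 and 32.9 TPM, and cytosolic Glrx had 7.86 and 10.4 TPM.

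The genes that make and recycle glutathione were expressed at moderate levels. Gclm, the modifier subunit of glutamate-cysteine ligase, had 31.1 TPM in replicate 1 and 28.7 TPM in replicate 2. Gclc, the catalytic subunit of that rate-limiting enzyme, had 16.2 and 15.4 TPM. Over all transcripts of each gene, the Gclm to Gclc ratio was 1.92 in replicate 1 and 1.86 in replicate 2. Protein-coding transcripts held 21.28 and 18.04 TPM for Gclm in replicates 1 and 2, and 15.68 and 14.98 TPM for Gclc. Gss, glutathione synthetase, had 20.1 and 18.6 TPM. Gsr, the reductase that recycles oxidised glutathione with NADPH, had 29.8 TPM in replicate 1 and 32.0 TPM in replicate 2. These 4 genes summed to 97.2 TPM in replicate 1 and 94.7 TPM in replicate 2.

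The most abundant of all the redox genes was Mgst1, a glutathione transferase and peroxidase of microsomal and outer mitochondrial membranes (ENSMUSG00000008540.11, chromosome 6, 138140316 to 138156755, plus strand). Mgst1 had 845 TPM in replicate 1 and 1121 TPM in replicate 2 and ranked 14 among nuclear protein-coding genes. Mgst3, its relative in the same membranes, had 25.6 and 29.2 TPM, so Mgst1 was 33.0 times Mgst3 in replicate 1 and 38.4 times in replicate 2. The methionine sulfoxide reductases, which repair oxidised methionine, were modest. Msrb1, the selenocysteine form, had 27.7 TPM in replicate 1 and 33.2 TPM in replicate 2. Msra, which reduces the S form of methionine sulfoxide, had 11.9 and 17.6 TPM. Msrb2, a mitochondrial form for the R sulfoxide, had 8.24 and 9.08 TPM.

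Of the 5 NADPH sources, the highest were cytosolic enzymes outside the pentose phosphate pathway. Me1, cytosolic malic enzyme (ENSMUSG00000032418.15, chromosome 9, 86581371 to 86695953, minus strand), had 439 TPM in replicate 1 and 422 TPM in replicate 2, from 45588 and 44418 counts, and ranked 64. Idh1, the isocitrate dehydrogenase of cytosol and peroxisomes, had 251 and 240 TPM in replicates 1 and 2. Idh2, its mitochondrial counterpart, had 35.4 and 33.4 TPM, and the Idh1 to Idh2 ratio was 7.11 in replicate 1 and 7.20 in replicate 2. The pentose phosphate enzymes lay between these. Pgd, phosphogluconate dehydrogenase, had 109 TPM in replicate 1 and 118 TPM in replicate 2. G6pdx, glucose-6-phosphate dehydrogenase, the entry step, had 66.1 and 75.4 TPM.

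The regulators were moderate in level and the classical NRF2 target Nqo1 was low. Nfe2l2, which encodes NRF2, had 36.0 TPM in replicate 1 and 43.1 TPM in replicate 2. Keap1, the adaptor that marks NRF2 for degradation, had 14.7 and 12.7 TPM. Nqo1, a quinone reductase, had 2.16 TPM in replicate 1 and 1.89 TPM in replicate 2, from 110 and 91 counts. Srxn1, known as another NRF2 target, was 80.2 times Nqo1 in replicate 1 and 142 times in replicate 2. That ratio is of all transcripts of Srxn1, whose protein-coding part held 165 and 181 TPM in replicates 1 and 2. Nqo1 was the second lowest of the 42 expressed redox genes, next to Gpx7. Nqo1 did not differ from Gpx7 beyond the spread between the libraries.

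The core of the antioxidant response element, TGACNNNGC, was searched on both strands in the 250 bases before each RefSeq gene start (GRCm38.p6), where 38 of the 43 genes had an entry. It was found for 7 of these 38 genes (18.4%), beside 3112 of 27025 genes with an entry (11.5%). A gene may have several RefSeq starts and was counted if any of them had a match. By start, 7 of 51 held a match (13.7%), beside 3338 of 32851 over all genes (10.2%). The 7 matches are shown because they are the promoters of the set that hold these letters. Each is written 5′ to 3′ in the direction of the gene, with the match in capitals, and a match is a description of letters and not of binding.
Nfe2l2: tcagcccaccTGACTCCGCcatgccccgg
Gclm: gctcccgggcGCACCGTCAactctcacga
Prdx1: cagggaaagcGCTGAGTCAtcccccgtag
Mgst1: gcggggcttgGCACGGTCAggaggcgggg
Txnrd1: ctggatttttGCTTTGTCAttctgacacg
Sod1: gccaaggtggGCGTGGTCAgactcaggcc
G6pdx: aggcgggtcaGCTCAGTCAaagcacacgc

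These stretches lie at chr2:75704885-75704913 (minus strand) for Nfe2l2, chr3:122245413-122245441 (plus strand) for Gclm, chr4:116685456-116685484 (plus strand) for Prdx1, chr6:138140461-138140489 (plus strand) for Mgst1, chr10:82859104-82859132 (plus strand) for Txnrd1, chr16:90220696-90220724 (plus strand) for Sod1 and chrX:74428919-74428947 (minus strand) for G6pdx. For Nfe2l2 the letters read forward on the strand of the gene, and for the other 6 they read on the opposite strand. For Mgst1, Txnrd1 and G6pdx the stretch lies inside the GENCODE gene. It stands before a RefSeq start that is downstream of the annotated start of the gene. The mean levels of the 7 genes with a match ran from 29.9 to 983 TPM with a median of 70.7 TPM, and the median of the 31 without a match was 42.4 TPM. In 4 of the 7 the ratio of scaled counts was above 1 in replicate 1 over replicate 2, beside 16 of the 30 without a match that had a mean of at least 10 counts.

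The libraries were compared gene by gene as log2 ratios of scaled counts, replicate 1 over replicate 2, for the 42 genes with a mean of at least 10 counts. None of the 42 was over 1.5-fold apart in either direction. Among all 17319 genes at that count, 14.4% were over 1.5-fold apart, 7.37% higher in replicate 1 and 7.02% higher in replicate 2. Among nuclear protein-coding genes with at least the count of the lowest redox gene tested, 4.72% were. The median absolute log2 ratio was 0.14 over the redox genes and 0.16 over those protein-coding genes. The exact 95% interval left out 1 for 30 of the 42, beside 44.9% of all 17319 genes and 52.8% of those protein-coding genes. The intervals cover counting error only, as reads without molecular identifiers are not independent molecules, and they narrow as counts grow.

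The split was even in number, 22 genes higher in replicate 1 and 20 higher in replicate 2, with a median log2 ratio of 0.06 beside 0.02 over all genes. The number higher in replicate 1 was 27 of 42 with total counts or kallisto counts, 15 with TPM and 11 with the spike-ins. The median log2 ratio of all genes moved as well. It was 0.07 with total counts, 0.02 with kallisto counts, -0.11 with TPM and -0.19 with the spike-ins. The share of all genes higher in replicate 1 under a single scaling is not given here, so the counts by role have no such share beside them. Within several roles most genes had 1 sign. The thioredoxin system had 5 of 6 genes higher in replicate 1 (median log2 0.30; 4 of 6 with the spike-ins or TPM as the scale). Txnrd1 had the highest ratio of the set, at log2 0.42 with a fold interval of 1.29 to 1.40, from 5230 counts in replicate 1 and 3939 in replicate 2. Txn1 had a log2 ratio of 0.33 (1.20 to 1.32) and Txnrd2 one of 0.27 (1.12 to 1.30), while Txn2 went the other way at -0.11. All 4 glutathione synthesis and recycling genes were higher in replicate 1 (median 0.19; 2 of 4 with the spike-ins and 3 of 4 with TPM), led by Gclm at 0.34 (1.17 to 1.36).

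Membrane and repair enzymes had the other sign. Mgst1 had a log2 ratio of -0.16 (fold interval 0.875 to 0.912) and Mgst3 one of -0.09, and both were lower in replicate 1 under every scaling tried. The 3 methionine sulfoxide reductases were lower in replicate 1 (median -0.19), but 1 of 3 was higher there with total counts as the scale and 2 of 3 with kallisto counts. Msra had the lowest ratio of the set, at -0.38 with an interval of 0.684 to 0.862, from 522 and 687 counts in replicates 1 and 2. Of the superoxide dismutases and catalase, 3 of 4 were lower in replicate 1 (2 of 4 with total or kallisto counts, 4 of 4 with the spike-ins), with Cat at -0.22 (0.838 to 0.884) and Sod3 at -0.19 (0.850 to 0.900). Of the 5 glutathione peroxidases tested, 4 were lower in replicate 1 (3 of 5 with total or kallisto counts), with Gpx3 at -0.18 (0.858 to 0.904) and Gpx4 at -0.14 (0.880 to 0.941).

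Spike-in scaling moved the median of all genes to -0.19 and the TPM ratio moved it to -0.11, and the redox genes moved with it. Relative to the median of all genes, the median of the redox genes lay 0.04 higher by scaled counts, 0.04 higher with the spike-ins and -0.03 by the TPM ratio. Across 6 count scalings, kallisto counts among them, 11 genes were higher in replicate 1 every time (Gpx7, Prdx4, Txn1, Txnrd1, Txnrd2, Txnrd3, Gclm, Gss, Idh1, Keap1 and Nqo1). Another 13 were lower in replicate 1 every time (Sod3, Cat, Gpx3, Gpx4, Gpx8, Prdx6, Srxn1, Txn2, Mgst1, Mgst3, Msra, G6pdx and Nfe2l2). The sign of the other 18 depended on the scaling. Of all genes with a value in each scaling, 25.1% were higher in replicate 1 every time, 37.6% were lower there every time and the sign of 37.3% depended on the scaling. Of the nuclear protein-coding genes with at least the count of the lowest redox gene tested, 22.5% were higher in replicate 1 every time, 35.6% were lower there every time and the sign of 41.9% depended on the scaling. The tissue markers moved beside these ratios, with all 6 brown fat markers lower in replicate 1 and all 5 medulla and all 6 liver markers higher there, and their part in the ratios was not tested.

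**Figure D2:**
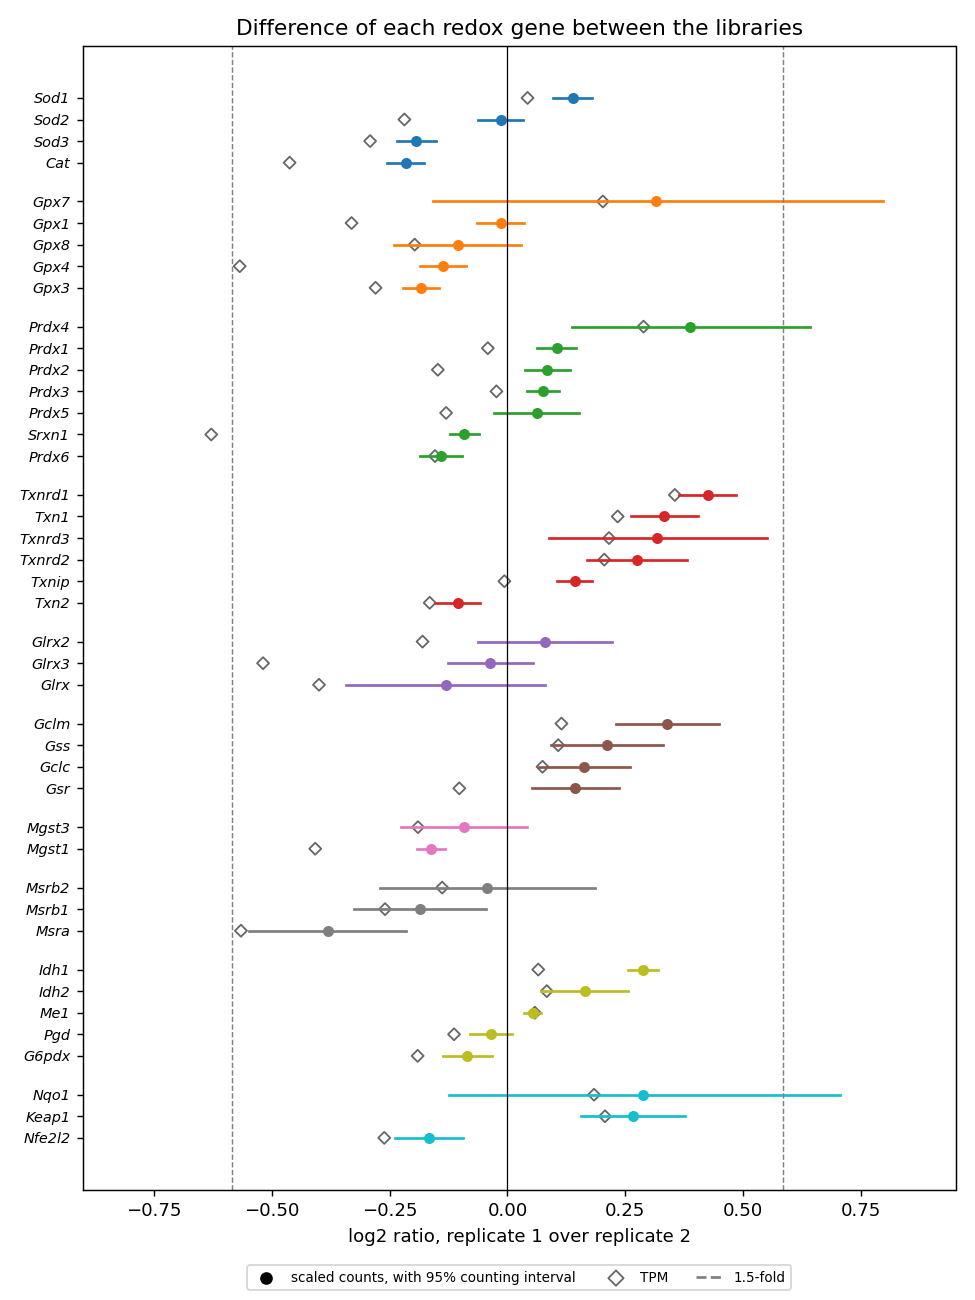
Log2 ratio of each of the 42 redox genes, replicate 1 over replicate 2, by scaled counts (filled points with the exact 95% counting interval, coloured by role) and by TPM (open diamonds); dashed lines mark 1.5-fold. All filled points lie within the lines, and the diamond of Srxn1 lies outside.

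**Figure D3:**
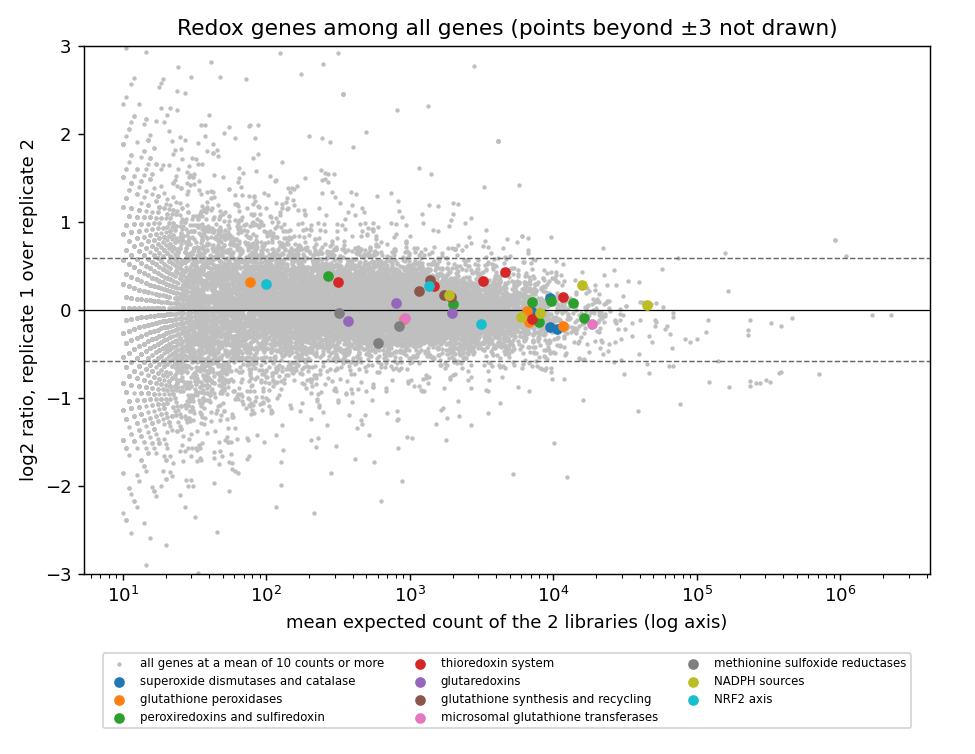
Log2 ratio of scaled counts, replicate 1 over replicate 2, against the mean expected count of each gene (log axis), with all genes at a mean of 10 counts or more in grey, the redox genes coloured by role and 1.5-fold as dashed lines. The coloured points lie between log2 -0.38 and 0.42, inside the cloud of grey points at the same count.

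By TPM most ratios moved toward replicate 2, as the median of all genes did. The TPM ratio had the other sign from the scaled-count ratio for 7 of the 42 genes (Prdx1, Prdx2, Prdx3, Prdx5, Txnip, Glrx2 and Gsr), which were above 1 by counts and below 1 by TPM, beside 18.4% of all genes and 21.8% of the protein-coding genes at like counts. Only Srxn1 was over 1.5-fold apart by TPM, at log2 -0.63, beside 14.7% of all genes. The share by TPM over protein-coding genes at like counts is not given here. The counts of Srxn1 were 15762 in replicate 1 and 16974 in replicate 2, a log2 ratio of -0.09 with a fold interval of 0.919 to 0.959. Part of the difference between the measures lay in the transcripts. The median of all genes also moved, from log2 0.02 by scaled counts to -0.11 by TPM. The coding transcript Srxn1-201 (2812 bases) held 15683 counts in replicate 1 and 16179 in replicate 2, or 165 and 181 TPM. The non-coding Srxn1-202, of 375 bases, held 66.0 counts in replicate 1 and 794 in replicate 2. Those few counts on a short transcript made up 3.95% of the gene's TPM in replicate 1 and 32.5% in replicate 2. The second quantification, by kallisto, put no TPM on Srxn1-202 in either library, and put 0 TPM in replicate 1 and 64.8 TPM in replicate 2 on another short transcript, Srxn1-203 (446 bases).

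The effective length of a gene, the length its TPM was divided by, differed by over 0.2 on the log2 scale between the libraries for 4 of 42 redox genes (9.52%), beside 17.3% of nuclear protein-coding genes at 1 TPM or more. They were Srxn1 at 0.44, Glrx3 at 0.39, Gpx4 at 0.33 and Gpx1 at 0.22, all with the longer effective length in replicate 1. Glrx3 had 1942 counts in replicate 1 and 2013 in replicate 2, but in replicate 2 the shorter Glrx3-205 and Glrx3-202 held 235 and 118 of them, and in replicate 1 both held 0 by RSEM. By kallisto Glrx3-205 was present in both libraries, at 18.4 TPM in replicate 1 and 33.2 TPM in replicate 2. The gene's TPM ratio was log2 -0.52, beside -0.04 by counts. Gpx1 split its counts between Gpx1-201 and the shorter Gpx1-204, with 3619 and 2816 counts in replicate 1 and 1646 and 4624 in replicate 2. For Gpx4 the TPM ratio was -0.57, beside -0.14 by counts. Gpx4-203, a retained-intron transcript of 280 bases, took 33.4% of the gene's TPM in replicate 1 and 45.5% in replicate 2, and kallisto gave it 0 TPM in both.

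**Figure D4:**
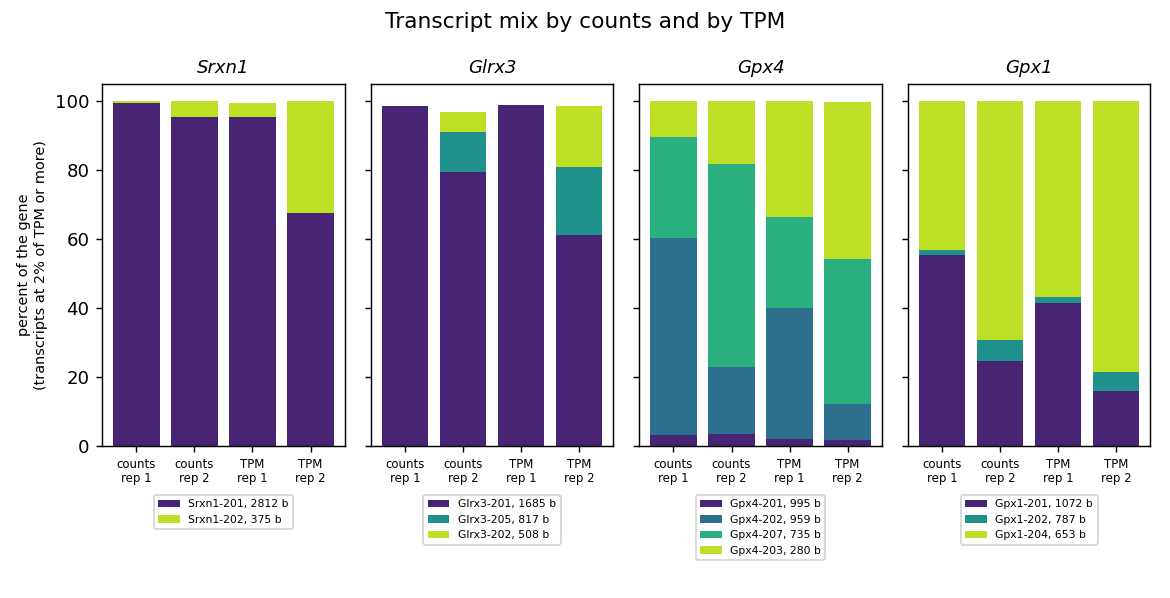
Share of each gene by transcript (percent; transcripts at 2% of TPM or more, lengths in bases in the legends) for Srxn1, Glrx3, Gpx4 and Gpx1, by counts and by TPM in each library. Srxn1-202 is a thin band by counts, 0.419% in replicate 1 and 4.68% in replicate 2, and takes 3.95% and 32.5% by TPM.

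The median share of a gene's TPM in protein-coding transcripts was 98.4% over the 42 expressed redox genes, beside 91.4% over nuclear protein-coding genes at 1 TPM or more. It was over 90% for 32 of the 42, beside 53% of those genes. The leading transcript was a different one in each library for 3 of 42 genes (7.14%; Mgst1, Gpx4 and Gclm), beside 14% of nuclear protein-coding genes at 1 TPM or more. In Mgst1 the leaders, Mgst1-207 with 39.7% in replicate 1 and Mgst1-204 with 48.2% in replicate 2, were both coding. The leading transcript was non-coding in both libraries for another 3 (7.14%), beside 5.21% of those genes. These were Sod2, Prdx6 and Prdx2.

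Sod2 had the lowest coding share, 11.2% of its TPM in replicate 1 and 9.05% in replicate 2. Its leading transcript was Sod2-207, annotated as a processed transcript, with 59.8% and 61.7% of TPM in replicates 1 and 2. By counts the long coding transcript Sod2-201 (5861 bases) still held 45.0% of the gene in replicate 1 and 39.0% in replicate 2. Prdx6 had a coding share of 16.9% in replicate 1 and 17.4% in replicate 2, under Prdx6-208, a transcript annotated to undergo nonsense-mediated decay, with 55.9% and 62.2%. Prdx2 had 63.1% in replicate 1 and 53.1% in replicate 2, with the retained-intron transcript Prdx2-205 in the lead at 34.7% and 44.9%. The next lowest were Gpx4 at 66.5% in replicate 1 and 54.2% in replicate 2, and Gclm at 68.5% and 62.8%. By kallisto the mean coding share was 24.3% for Sod2, 13.5% for Prdx6, 56.3% for Prdx2 and 33.0% for Gclm, but 99.9% for Gpx4. The coding transcripts of Sod2 had 107 TPM in replicate 1 and 71.5 TPM in replicate 2 by kallisto. The scaled-count ratios of these genes, taken over all their transcripts, were log2 -0.01 for Sod2 (fold interval 0.958 to 1.02), -0.14 for Prdx6 (0.879 to 0.936) and 0.08 for Prdx2 (1.03 to 1.10).

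**Figure D5:**
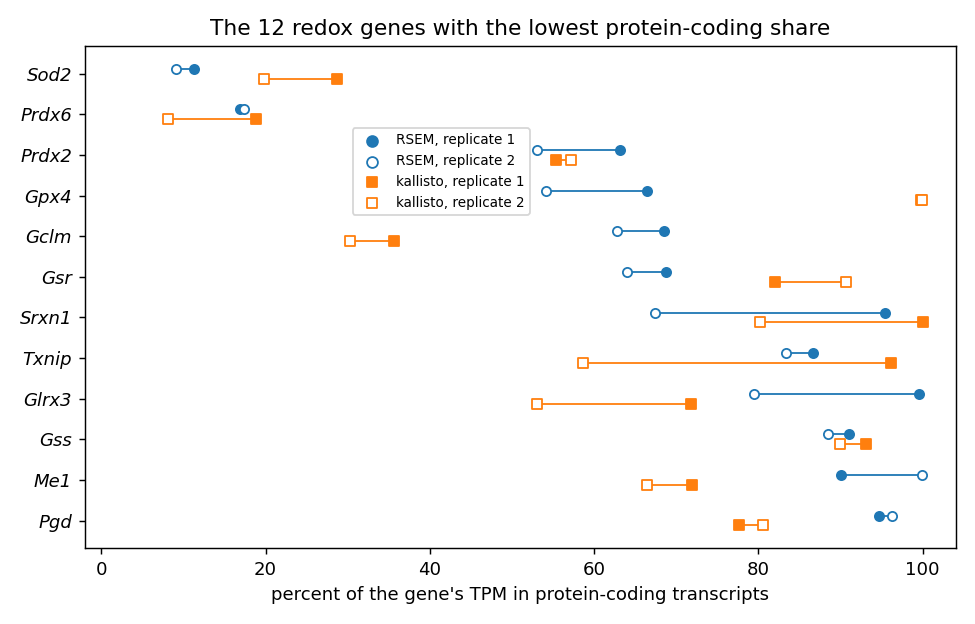
Percent of the gene's TPM in protein-coding transcripts for the 12 redox genes with the lowest share, by the RSEM table (circles) and the kallisto table (squares), filled for replicate 1 and open for replicate 2, with a line joining the libraries. Sod2 and Prdx6 are low in both tables, and Gpx4 averages 60.3% by RSEM and 99.9% by kallisto.

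Kallisto TPM were higher than RSEM TPM over all nuclear protein-coding genes, by 1.63-fold in the median (log2 0.71, n = 11761). Relative to that median, 3 of the 42 redox genes (7.14%) differed by over 1.5-fold between the quantifications, beside 6.88% of protein-coding genes. Gclm stood highest, at log2 1.09 above that median, with 114 TPM in replicate 1 and 94.2 TPM in replicate 2 by kallisto. Its kallisto ratio to Gclc over all transcripts was 3.21 in replicate 1 and 4.22 in replicate 2. Protein-coding transcripts held 40.5 and 28.6 TPM for Gclm by kallisto in replicates 1 and 2, and 27.1 and 22.3 TPM for Gclc. Gclm shares a strand and overlaps with the pseudogene Gm6061, which had 0 counts in replicate 1 and 2.62 in replicate 2 by RSEM. Prdx2 followed at log2 0.60 and Sod2 at log2 0.59 above it. Prdx5 lay at log2 -0.43 and Glrx at log2 -0.38 from it, the lowest of the set. The scaled-count ratio of Prdx5 was log2 0.06 (fold interval 0.981 to 1.11) and that of Glrx was -0.13 (0.789 to 1.06), and both intervals held 1.

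The counts of Gpx4 are uncertain beside Gpx4-ps2, annotated as its processed pseudogene, though how many reads they share was not tested. Gpx4-ps2 held 845 counts in replicate 1 and 720 in replicate 2 by RSEM, and 4.64 and 7.65 by kallisto. Gpx4 itself had 6472 counts in replicate 1 and 7191 in replicate 2 by RSEM. The order of Gpx4 and Gpx1 also turned with the quantification: Gpx4 was 1.26 times Gpx1 in replicate 1 and 1.49 times in replicate 2 by RSEM, and 0.977 and 0.986 times by kallisto. Another 9 redox genes overlap a gene on the opposite strand, among them Prdx2 with Junb (389 counts in replicate 1 and 725 in replicate 2) and G6pdx with Ikbkg (1985 and 1773 counts). The library kit was directional, and the sources used here do not give how strand was used in counting.

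Other genes of the same chemistry were read from lists. Of 20 further NRF2 targets 17 reached 1 TPM in both libraries, led by the ferritin chains Fth1, with 1010 TPM in replicate 1 and 1290 TPM in replicate 2, and Ftl1, with 418 and 513 TPM. Of the 18 tested 6 were higher in replicate 1 and 12 in replicate 2 (median log2 -0.15). Over 1.5-fold apart was 1 of the 18, beside 14.4% of all genes with a mean of at least 10 counts. It was Hmox1 (heme oxygenase, singled out after its values were seen), at 12.1 TPM in replicate 1 and 20.5 TPM in replicate 2. All 9 regulators of NRF2 reached 1 TPM (median log2 0.01), led by the autophagy receptor Sqstm1 at 414 and 465 TPM in replicates 1 and 2, and Nfe2l1 at 209 and 284 TPM. Of 17 other selenoproteins 13 reached 1 TPM, led by the selenium carrier Selenop at 108 and 129 TPM and Selenof, of the endoplasmic reticulum, at 103 and 128 TPM. Of the 14 tested 2 were over 1.5-fold higher in replicate 1 and 1 was in replicate 2, with a median log2 of 0.18. Over all genes with a mean of at least 10 counts the shares were 7.37% higher in replicate 1 and 7.02% in replicate 2. The pair higher in replicate 1 was Selenoh, at 10.9 TPM in replicate 1 and 6.67 TPM in replicate 2, and Dio1, a deiodinase with 21 and 11 counts. The gene higher in replicate 2 was Dio2, a deiodinase that brown fat is known to express. It had 6.62 TPM in replicate 1 and 16.3 TPM in replicate 2. Brown fat markers were lower in replicate 1 as well, and the part of that tissue in the Dio2 values was not tested. Selenoh, Dio1 and Dio2 were singled out after their values were seen.

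All 7 genes that make and insert selenocysteine reached 1 TPM (median log2 0.03), and none was over 1.5-fold apart, beside 14.4% of all genes. They were led by Sephs1 at 16.0 TPM in replicate 1 and 13.8 TPM in replicate 2, and Trnau1ap at 9.82 and 11.0 TPM. All 12 genes of a list of further NADPH enzymes and their pathway partners reached 1 TPM (median log2 0.12). Its highest were Tkt at 365 TPM in replicate 1 and 519 TPM in replicate 2 and Taldo1 at 224 and 222 TPM, enzymes of the branch of the pentose phosphate pathway that makes no NADPH itself. Of the superoxide and peroxide sources 15 of 17 listed symbols were found and 10 reached 1 TPM (median log2 0.15). Xdh, xanthine dehydrogenase, led them at 109 TPM in replicate 1 and 146 TPM in replicate 2. All 12 thioredoxin-fold proteins reached 1 TPM (median log2 0.08), led by the disulfide isomerases P4hb at 166 and 160 TPM and Pdia3 at 143 and 133 TPM in replicates 1 and 2.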

How the data were processed

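Total RNA-seq of 2 libraries of 1 group was used. Per the deposited text, mm10 and GENCODE M21 were used, the authors derived the RSEM-type gene and transcript tables from alignments to the transcriptome, and the kallisto-type table from reads and a transcript index. The sources used here give no program versions or settings. The authors deposited expected counts (estimated read pairs, not always whole), TPM per gene and transcript, and, per the file headers, each transcript's percent of the TPM of its gene. The effective length is the deposited column of that name. The expected counts of 8 redox genes were not whole (tolerance 0.005).

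Factors (edgeR 4.0.16, trimmed mean of M-values, 1.02 and 0.981) and ratios (prior of 0.5 counts) were computed on expected counts after rounding; intervals were exact Clopper-Pearson at 95%. Rows that name no gene held 0.909% of counts in replicate 1 and 0.760% in replicate 2 and stayed out. The TPM ratio used a pseudocount of 0.1. Python 3.11.15, R 4.3.3 and DESeq2 1.42.0 were used, the last for other size factors only. On simulated data for 55536 genes, 100 of 100 genes changed 4-fold and 98 of 100 changed 2-fold were past 1.5-fold. The spread of the simulated counts and the number of unchanged genes past 1.5-fold are not given here. The recovery therefore cannot tell how the 1.5-fold limit performs at the spread of the real libraries.

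All 43 genes are named with both levels. Ratios with intervals are given for those past 1.5-fold, for the 5 most different between quantifications, for the 5 with the lowest coding share and for some beyond that rule, chosen after their values were seen. The genes and lists were chosen with earlier results of these data known. Protein sequences are not used here. Of the further lists the 2 most abundant genes are named, except where a gene is not reported here.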

Additional observations from a re-analysis of the deposited data

How the results depend on the processing

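The number of redox genes at 1 TPM was 42 by kallisto and without either replicate, and 39 at a threshold of 5 TPM. Their share of nuclear protein-coding TPM, 1.74%, was 1.70% by kallisto, 1.14% by expected counts and 1.72 to 1.76% without one of the replicates. The median log2 ratio of 0.06 was 0.11 with total counts, -0.15 with the spike-ins and -0.13 by TPM. No gene was over 1.5-fold higher in replicate 2 by scaled counts, 1 was by TPM (Srxn1) and 1 without the count filter (Gpx2). The leading transcript was the same in both libraries for 39 genes, 35 by kallisto and 38 among coding transcripts. Kallisto TPM lay further from the mean than the spread between replicates for 42 of 43 genes. That count holds a difference of scale, as kallisto TPM were 1.63-fold higher in the median over nuclear protein-coding genes. Those genes held 31.7% of RSEM TPM in replicate 1 and 35.6% in replicate 2, and 60.9% and 58.1% of kallisto TPM. Ratios of 27 of 42 genes moved by more than counting error by TPM, 36 with the spike-ins, 19 with total counts and 10 by kallisto; the causes were not tested. Ratios could not be given without a replicate. No paired analysis was possible because there is 1 group. Counts limit Gpx7, Nqo1 and Prdx4, whose intervals reach past 1.5-fold.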
